A study of Caenorhabditis elegans with 2 samples.

Results

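The endoderm GATA cascade of Caenorhabditis elegans is represented here by 7 genes, med-1, med-2, end-1, end-3, elt-2, elt-4 and elt-7, out of 19985 protein-coding genes. They were chosen by name, and every summit of an ELT-2 chromatin immunoprecipitation (ChIP) peak from 20 kb before the 5′ end to 20 kb after the 3′ end of each was taken. In the thresholded list 9 of 4098 summits lay in these windows, and in the full pooled list 64 of 30000 did. The samples were hermaphrodite late embryos, whole animals of unknown age, taken 4 hours after synchronization by bleaching. Their strain, OP56, has the genotype unc-119(ed3) III; wgIs56, in which the integrated transgene wgIs56 makes ELT-2 tagged with GFP and FLAG at its C-terminus. Protein bound to DNA was precipitated with an anti-GFP antibody in biological replicates 1 and 2, which form 1 group with no second condition. The transgene brings additional copies of elt-2, so elt-2 and its neighbour elt-4 are described apart from the other 5 genes. How many copies it holds, and how much flanking sequence, is not given in the sources used here.

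The intestine of the worm descends from a single embryonic cell. In the known cascade the maternal factor SKN-1 turns on med-1 and med-2, a pair of near-identical genes, and the MED proteins turn on end-1 and end-3 in the endoderm precursor with help from a Wnt signal. END-1 and END-3 then start elt-2 and elt-7, whose products keep the intestine differentiated for life. The MED and END genes are known to be active briefly in early embryos, while elt-2 maintains its own expression. All the products are GATA-type zinc finger factors, and TGATAA is the core of the sites ELT-2 prefers, whereas the MED proteins recognise a different core, AGTATAC. The gene elt-4 encodes a short GATA protein and lies just upstream of elt-2.

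In the thresholded list ELT-2 summits lay inside the transcribed part of end-1 and just before elt-7, and at a distance of several kb from the 5′ ends of med-1, med-2 and end-3. No list held a summit within 20 kb of elt-2 or elt-4. The sequences below carry the TGATAA sites at the 4 thresholded summits that had one within 50 bp. They come from the RefSeq copy of WBcel235, the assembly also called ce11, and are written 5′ to 3′ on the plus strand, on which all 7 genes are transcribed. Capitals mark TGATAA or its reverse complement TTATCA.
elt-7 upstream chrV:4770550-4770669: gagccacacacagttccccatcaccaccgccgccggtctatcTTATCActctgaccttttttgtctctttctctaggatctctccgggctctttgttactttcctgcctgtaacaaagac
end-1 3′ site chrV:13987062-13987091: tgacagttctacTGATAAgctctttttgtg
med-1 distal upstream summit chrX:12420598-12420698: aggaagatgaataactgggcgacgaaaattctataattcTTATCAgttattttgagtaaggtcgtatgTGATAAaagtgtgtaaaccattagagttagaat
med-2 downstream summit chrIII:6895213-6895313: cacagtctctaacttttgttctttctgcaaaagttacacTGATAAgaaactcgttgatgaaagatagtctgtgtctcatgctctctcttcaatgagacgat
The elt-7 stretch ends at the base before the annotated start of the gene. The med-1 stretch holds 2 sites in opposite orientations, one on each side of its centre, and the med-2 stretch holds 1 site whose centre lay 8.5 bp before the summit.

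Among the 7 genes, elt-7 was the only one with a thresholded summit in its promoter window, which reaches from 1000 bp upstream to 200 bp downstream of any annotated 5′ end. Over all protein-coding genes 13.7% had one. In the pooled list, which adds weak entries, elt-7 was again the only one of the 7, against 42% of all genes. The remaining 6 genes had no summit of the pool, replicate 1 or replicate 2 in that window. Pooled entries of end-1 lay outside it, 1029 bp before and 433 bp after the 5′ end, and 1 of end-3 lay 546 bp after. Other widths of the window were tried on the thresholded list only. A list of 7 genes chosen with results known carries no test, and these counts are a description.

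Within 20 kb summits were found at more genes, among the 7 as over all genes. Apart from elt-2 and elt-4, a thresholded summit lay in the windows of 5 of 5 genes, against 75.7% of all genes. With elt-2 and elt-4 counted it was 5 of 7 (71.4%). Counts of so few genes are read as neither high nor low. Counts of thresholded summits were 4 for med-2, 2 for med-1, 1 each for end-1, end-3 and elt-7, and 0 for elt-2 and elt-4, with a median of 2 over all genes. In the pooled list the counts were 18 for med-1 and for med-2, 17 for end-3, 12 for end-1, 5 for elt-7 and 0 for elt-2 and elt-4, and the median over all genes was 11. The windows of end-1 and end-3 overlap, so some pooled summits counted for both.

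**Figure D1:**
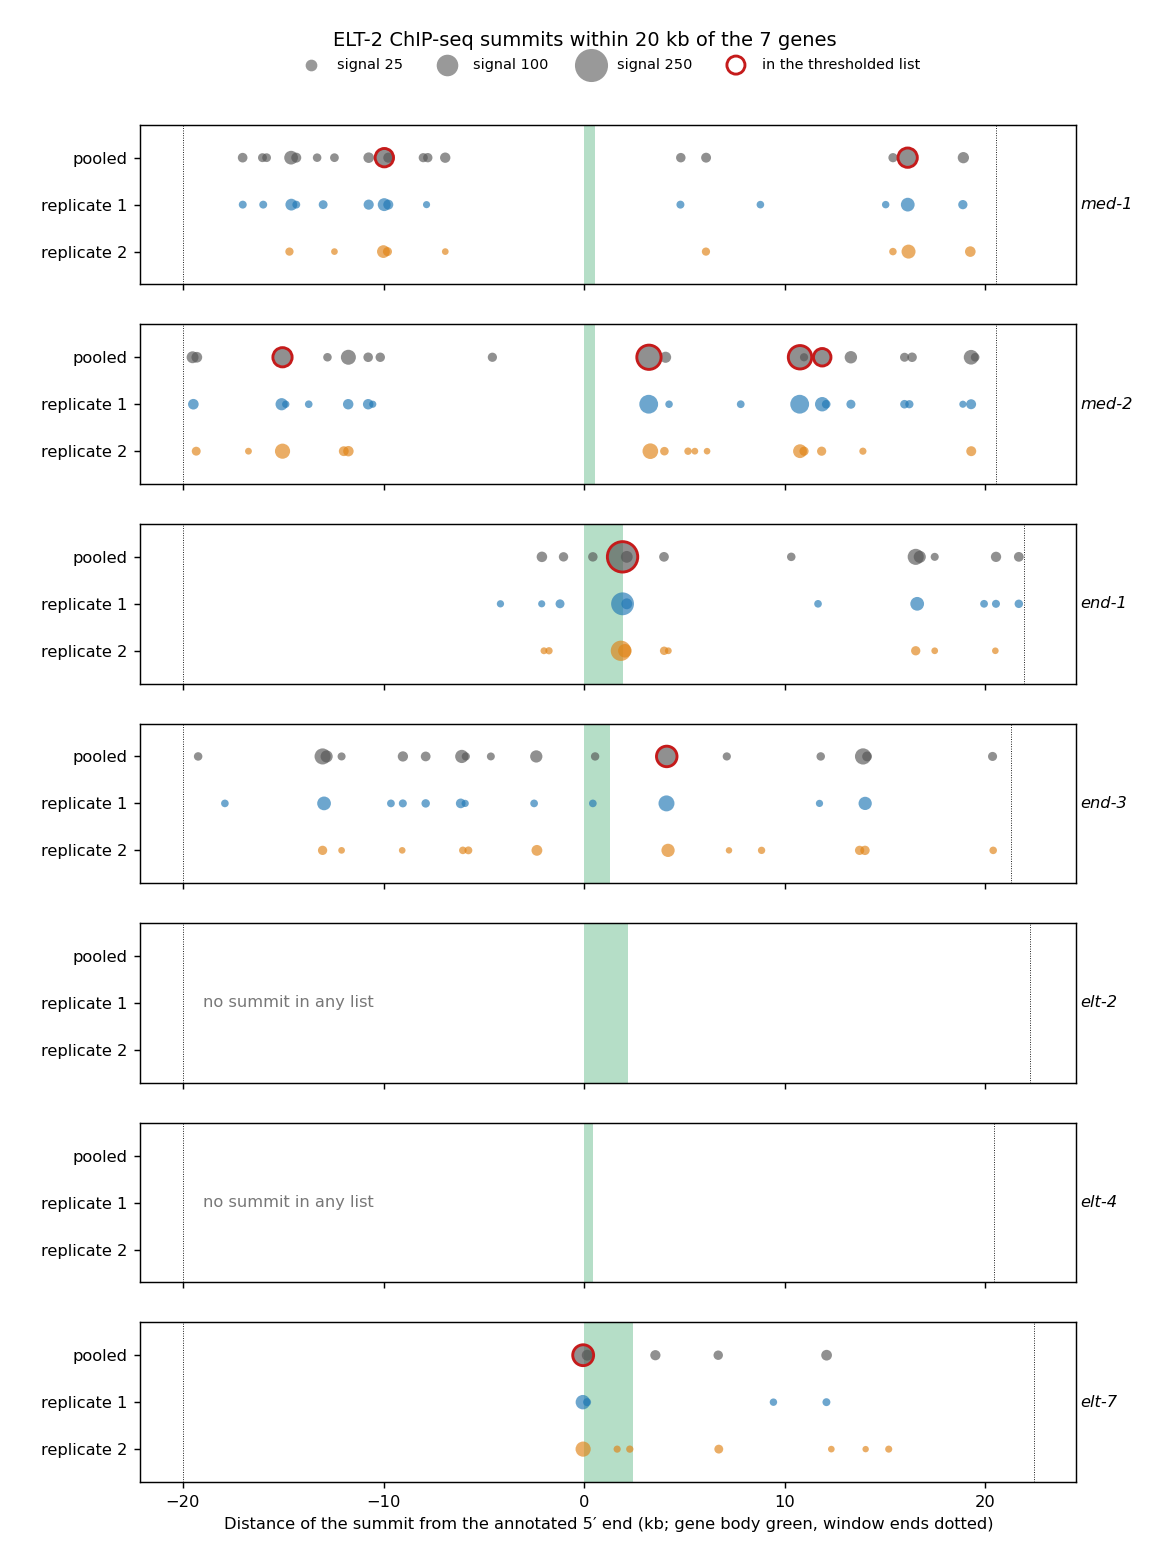
Each row shows 1 gene, with summits of the pooled list, replicate 1 and replicate 2 placed by distance from the annotated 5′ end in kb; circle area is proportional to the authors' peak signal, and red rings mark the 9 summits of the thresholded list. Rings lie at the 5′ end of elt-7 and at the 3′ end of end-1, the med genes have empty stretches around them, and elt-2 and elt-4 have no circle in any list.

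At the top of the cascade, med-1 (WBGene00003180, chromosome X, 12430609 to 12431133) had its thresholded summits 9961 bp before and 16126 bp after its 5′ end. The upstream one, at chrX:12420648, had a signal of 42.8 in replicate 1, 41.7 in replicate 2 and 86.5 in the pool. Signal is the authors' own measure of peak strength, and a rank of 1 is the strongest peak of a list. This summit ranked 3489, 3000 and 2901 in replicate 1, replicate 2 and the pool, and its 2 TGATAA sites are in the med-1 sequence printed above. The downstream one, at chrX:12446735, had a signal of 48.4 in replicate 1, 50.1 in replicate 2 and 95.5 in the pool, with no TGATAA within 50 bp. The log2 ratios of replicate 1 to replicate 2 were 0.04 and −0.05. Their median was 0.20 over the thresholded summits matched in both replicates, and depth is unknown. Both were intergenic, and the nearest protein-coding 5′ ends were those of T24D3.2, 5082 bp away, and T18D3.6, 3157 bp away, so neither summit was closest to med-1.

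The paralogue med-2 (WBGene00003181, chromosome III, 6884503 to 6885027) had more thresholded summits in its window than any other of the 7 genes, and more than 85.2% of all protein-coding genes. The strongest of its 4, at chrIII:6887733, lay 3230 bp after the 5′ end. Its signal was 90.3 in replicate 1, 62.5 in replicate 2 and 151 in the pool. That summit fell inside a transfer RNA gene, WBGene00023099, on the minus strand, and inside the non-coding gene K04C2.10, with the 5′ end of brd-1, the worm BARD1 gene, 1771 bp away. No TGATAA and no WGATAR (W is A or T, R is A or G) lay within 50 bp of it.

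The next 2 summits of med-2 by signal lay on either side of the gene. At chrIII:6895263, 10760 bp after the 5′ end, the signal was 90.6 in replicate 1, 49.0 in replicate 2 and 140 in the pool, and the med-2 sequence above shows its TGATAA. At chrIII:6869466, 15037 bp before the 5′ end, the signal was 38.3 in replicate 1, 58.7 in replicate 2 and 94.6 in the pool. This was a promoter summit of other genes: it lay 6 bp before cra-1, which is needed for assembly of the synaptonemal complex in meiosis, and in the windows of the kinetochore gene kbp-1 and of K04C2.8.

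The weakest thresholded summit of the whole set was the fourth near med-2, at chrIII:6896370, 11867 bp after the 5′ end. Its signal was 53.3 in replicate 1, 21.6 in replicate 2 and 78.2 in the pool, and its rank was 2473 in replicate 1 against 7882 in replicate 2. The log2 ratio of replicate 1 to replicate 2, 1.30, lay outside the range from −0.60 to 1.01 that held the middle 90% of 3853 thresholded summits matched in both replicates. The ratio of the summit at chrIII:6869466, −0.62, lay just below that range. The summits at chrIII:6896370 and chrIII:6895263 were both nearest to T07E3.4, with 5′ ends 1644 and 2751 bp away.

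The sequence just before each med gene is the part that SKN-1 and other regulators read, and it was nearly the same in both genes. The last 120 bases before each 5′ end are printed here because no summit was listed over either, although both hold a TGATAA site, written in capitals in its reverse complement form.
med-1 upstream chrX:12430489-12430608: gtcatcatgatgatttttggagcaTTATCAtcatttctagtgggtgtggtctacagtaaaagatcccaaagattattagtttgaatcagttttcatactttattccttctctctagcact
med-2 upstream chrIII:6884383-6884502: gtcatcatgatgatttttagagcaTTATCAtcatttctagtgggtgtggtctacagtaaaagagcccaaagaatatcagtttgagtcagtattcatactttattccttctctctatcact
Over 250 bp upstream 235 bases were identical (94%), and within the gene 512 of 525 (97.5%), with 115 bp the longest identical run in the gene. Each med promoter window held 2 TGATAA sites, starting 155 and 96 bp before the 5′ end in both genes. In the pooled list the stretch free of summits reached from 6926 bp before to 4818 bp after the 5′ end of med-1, and from 4575 bp before to 3230 bp after that of med-2. These lengths, 11744 and 7805 bp, were exceeded by 1709 and 2502 of the 29993 intervals between neighbouring pooled summits, whose median was 1492 bp.

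The likeness of the med genes bears on what reads can be placed there. Of the 36-base words in the gene and promoter window of each med gene, 81.5% occurred once in the genome, against 100% for end-1, elt-2 and elt-4, 99.96% for end-3, 98.2% for elt-7 and 92.1% over the genome. With 50-base words the share was 87.5% for each med gene and 93.5% for the genome. The read length and the authors' treatment of reads that map to several places are not stated in the labels or files used, and the part of this repeat in the absence of summits was not tested. Over 5 kb upstream and the gene, 94.4% of 36-base words of each med gene were unique, so most of that upstream sequence was single-copy at this word length.

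The 2 END genes lie near each other on chromosome V and differed in where summits fell. The strongest thresholded summit near any of the 7 genes belonged to end-1 (WBGene00001310, 13985128 to 13987074). It had a signal of 133 in replicate 1, 105 in replicate 2 and 236 in the pool, where it ranked 422 of 30000. Its peak, chrV:13986931-13987144, was 214 bp wide, and the summit at chrV:13987042 lay 1914 bp after the 5′ end, in the annotated 3′ UTR of end-1. The TGATAA printed above was centred 34.5 bp to the right of the pooled summit. The summit of replicate 1 was at the same base, whereas that of replicate 2 lay 83 bp to the left, in a coding exon of end-1, with no TGATAA within 50 bp. Over all genes, 16.4% had a stronger pooled summit within 20 kb.

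The promoter window of end-1 held no summit in any list, and the pooled entries closest to it were weak. They lay 2106 bp upstream (signal 28.4, with TGATAA), 1029 bp upstream (signal 22.6) and 433 bp downstream of the 5′ end in an intron (signal 23.0, with TGATAA). The median signal of the pooled list was 26.5, so the first was just above it and the other 2 below it. No entry of replicate 1 or replicate 2 lay within 100 bp of the summits at 1029 and 433 bp. A second entry beside the 3′ summit, 2124 bp from the 5′ end and in the 3′ UTR of the convergent gene ric-7, had a signal of 30.3 in replicate 1, 47.3 in replicate 2 and 35.6 in the pool.

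The only thresholded summit near end-3 (WBGene00001311, chromosome V, 14014695 to 14015980) was at the 5′ end of another gene. It lay 4117 bp after the 5′ end of end-3, at chrV:14018812, 46 bp inside T08G5.1, and in the promoter windows of T08G5.1 and of the metallothionein gene mtl-2. Its signal was 65.3 in replicate 1, 45.0 in replicate 2 and 108 in the pool, and the nearest TGATAA was centred 65.5 bp away. Within the transcribed part of end-3 there was 1 pooled entry, 546 bp from the 5′ end in a coding exon, with a signal of 18.1 and no replicate entry within 100 bp. Replicate 1 had an entry of its own 433 bp from the 5′ end, in an intron, with a signal of 15.1, and replicate 2 had none inside the gene. The closest upstream pooled entry lay 2387 bp before end-3, at the 5′ ends of aip-1 and ddx-17, with a signal of 38.5.

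Near the END genes, 2 pooled summits stood just under the threshold, whose lowest signal was 67.6. One had a signal of 67.3 (rank 4124) and lay at chrV:14028598, in the small nuclear RNA gene T08G5.11, 13903 bp after the 5′ end of end-3. The other had a signal of 66.3 (rank 4191) and lay at chrV:14001656 in an intron of ric-7, between end-1 and end-3, with a TGATAA within 50 bp. The weakest members just inside the threshold were the summits of 78.2 near med-2 and 86.5 near med-1.

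Of the factors that maintain the intestine, elt-7 (WBGene00015981, chromosome V, 4770670 to 4773086) carried the promoter summit. It lay 49 bp before the 5′ end, at chrV:4770621, in a peak from 4770393 to 4770848. The signal was 53.3 in replicate 1, 59.0 in replicate 2 and 111 in the pool, and the ranks were 2472, 1651 and 1950. Summits of the replicates lay 16 and 2 bp to the left of the pooled one, and the log2 ratio of replicate 1 to replicate 2 was −0.15. The TGATAA in the elt-7 sequence above started 78 bp before the 5′ end, on the strand opposite to the gene. It was the only such site from 1000 bp before to 200 bp after the gene start. The same summit counted for the neighbouring gene C18G1.9. A stronger pooled promoter entry than that of elt-7 was found at 6.78% of all protein-coding genes.

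The rest of the elt-7 region was sparse. Pooled entries lay 154, 3550, 6683 and 12085 bp after the 5′ end, with signals of 30.5, 26.7, 22.8 and 29.5, and none lay between 20 kb upstream and the promoter summit. The first of these was in a coding exon and had an entry of replicate 1 nearby (signal 16.5) but none of replicate 2. The next thresholded summit downstream was 56578 bp from the promoter summit. Over 5 kb upstream of elt-7 and the gene, 90.4% of 36-base words occurred once in the genome, against 92.1% over the genome. The part of repeated sequence in the lack of upstream entries was not tested.

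Leaving aside C18G1.9, which shares its summit, 3 genes had promoter summits at like ranks to elt-7. They were set-4, which encodes a histone H4 methyltransferase, gcsh-1, a gene of the glycine cleavage system, and H01M10.1. Their Euclidean distances from elt-7 in log10 rank over the 3 lists (pool and both replicates) were 0.0219, 0.0238 and 0.0287, among 2581 genes compared. Pooled signals were 113 for set-4, 113 for gcsh-1 and 109 for H01M10.1, beside 111 for elt-7. The measure uses ranks alone and says nothing of function.

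**Figure D2:**
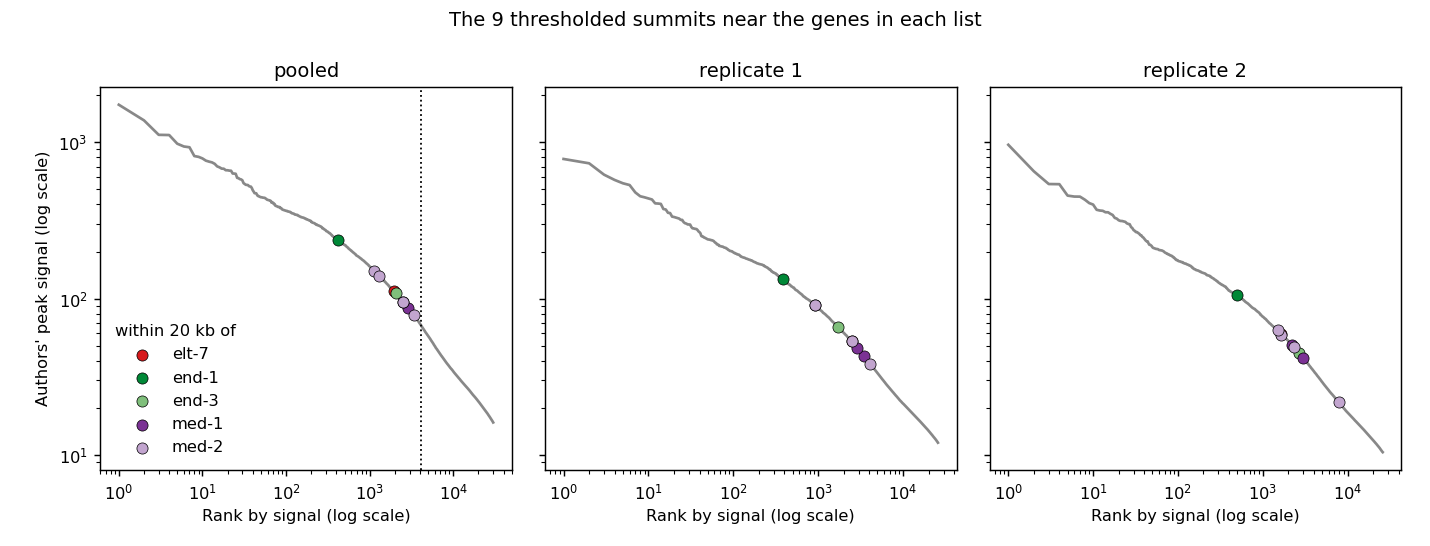
Peak signal against rank, both on log scales, for the pooled list and for each replicate (grey lines), with the 9 thresholded summits near the genes as coloured points; the dotted line marks the last rank of the thresholded list. The end-1 summit is the highest point in each list, and the lowest point in replicate 2 is the med-2 summit with a signal of 21.6.

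Replicate entries accompanied all 9 thresholded summits within 100 bp, as they did 3853 of the 4098. Agreement between replicates had already entered the authors' thresholding, so this match is no separate support. Of the 55 pooled summits near the genes below the threshold, 8 were matched in both replicates (14.5%), 31 in 1 (56.4%) and 16 in neither (29.1%). Over all 25902 pooled summits below the threshold the shares were 21.2% in both, 57.1% in 1 and 21.7% in neither. By the authors' q-values, 13 of the 64 pooled entries had a q of 0.05 or less (20.3%), compared with 5399 of the 30000 in the pooled list. Weak entries made up most of the pooled list, near these genes as elsewhere.

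TGATAA lay within 50 bp of 4 of the 9 thresholded summits (44.4%), against 43.5% of all thresholded summits, a share near the background. Of the 64 pooled summits 15 had the site (23.4%), and 17% of the pooled list did. By annotation 6 of the 9 were intergenic, 2 lay in a UTR exon and 1 in a non-coding exon. Of the 9, 3 lay in the promoter window of a protein-coding gene, namely those at elt-7, at T08G5.1 and mtl-2, and at cra-1. Shares of all thresholded summits by annotation or promoter window are not given here. These counts are therefore read as neither high nor low.

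Words in the DNA were counted apart from the summits. In the window from 1000 bp before to 200 bp after the gene start, TGATAA occurred 6 times at elt-2, 2 times at med-1, med-2, end-3 and elt-4, 1 time at elt-7 and not at end-1. The median over all genes was 1, and 72.0% of genes had at least 1 site. The count at elt-2 was matched or exceeded by 0.831% of genes. The broader word WGATAR, which contains TGATAA, occurred between 3 and 8 times in these windows, with a median of 3 over all genes. The MED core AGTATAC, on either strand, occurred 4 times at end-3 and 2 times at end-1 and not at the other 5 genes, while 7.08% of all genes had it. These are matches of letters and not measured binding.

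**Figure D3:**
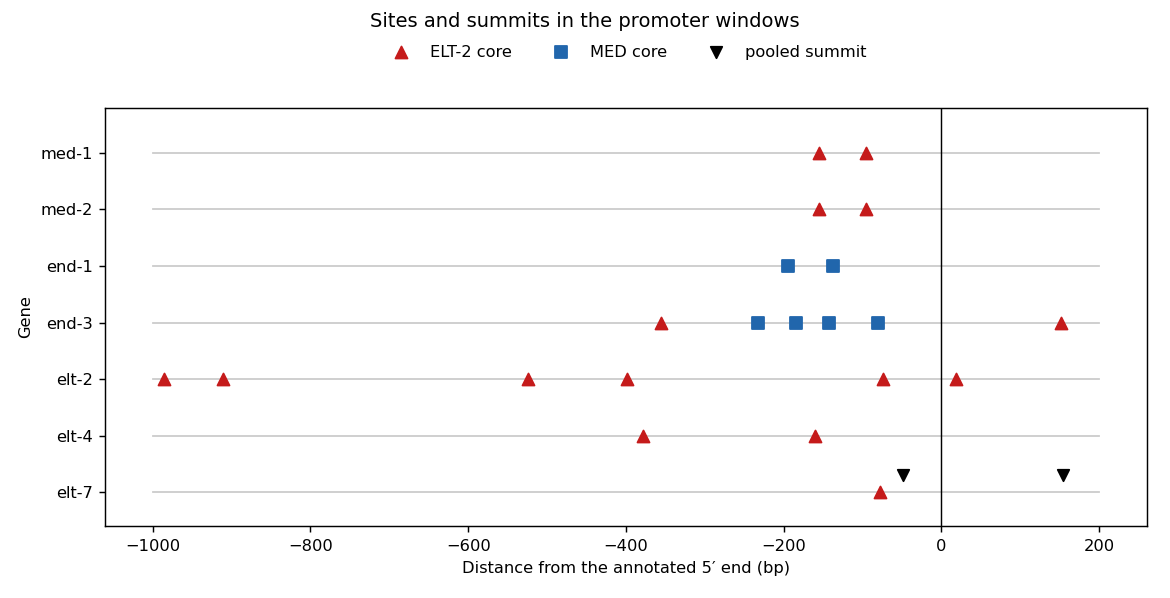
Positions of TGATAA (red triangles, labelled ELT-2 core) and AGTATAC (blue squares, labelled MED core) in bp from the annotated 5′ end of each gene, with pooled summits as black triangles pointing down. The 6 TGATAA sites of elt-2 have no summit above them, and elt-7 is the 1 gene with summits in this window, at −49 and 154 bp.

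Around elt-2 (WBGene00001250, chromosome X, 10481240 to 10483441) and elt-4 (WBGene00001252, chromosome X, 10475527 to 10475959) no summit was listed within 20 kb in the thresholded list, the pool, replicate 1 or replicate 2. The genes lie on the same strand, with 5281 bp between the end of elt-4 and the start of elt-2. Of all protein-coding genes, 24.3% had no thresholded summit within 20 kb, and 3.26% had no pooled one. In the pool and both replicate lists together, 206 genes (1.03%) had none. On X there were 7 such genes, and 5 of them lay in the interval around elt-2.

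The last pooled summit before elt-2 was at chrX:10441124, 40116 bp before its 5′ end, with a signal of 41.7, and the first after it was at chrX:10511825, 28384 bp after its 3′ end, with a signal of 16.5. The interval between them was 70701 bp long and held 11 protein-coding genes. It was exceeded by 29 of 29993 pooled intervals, of which 1 was on X. In replicate 1 the interval was 71655 bp, exceeded by 14 of 25763. In replicate 2 it was 83489 bp, exceeded by 5 of 25979, none of them on X. The replicates thus placed the empty stretch at nearly the same left end, with summits 22 and 124 bp to the right of the pooled one. The right ends differed more, at chrX:10511825 in the pool, chrX:10512801 in replicate 1 and chrX:10524737 in replicate 2.

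Beyond the interval, entries were present. Within 50 kb of elt-2 there were 3 thresholded, 16 pooled, 16 replicate 1 and 12 replicate 2 summits, and within 100 kb there were 9, 53, 56 and 44. A stretch of the interval's length held 18.8 pooled summits on average on X. Among the 30 longest pooled intervals, the one around elt-2 was the shortest, so the cut fell at its own length, and 2 of the 30 were on X. Of the 30, 4 held no entry of either replicate more than 1000 bp inside their ends. The one around elt-2 was the only one of these 4 on X. The longest of all, on chromosome V, was 221084 bp. For comparison, the window of unc-119, the other gene of the strain's genotype, held 0 thresholded but 27 pooled summits.

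**Figure D4:**
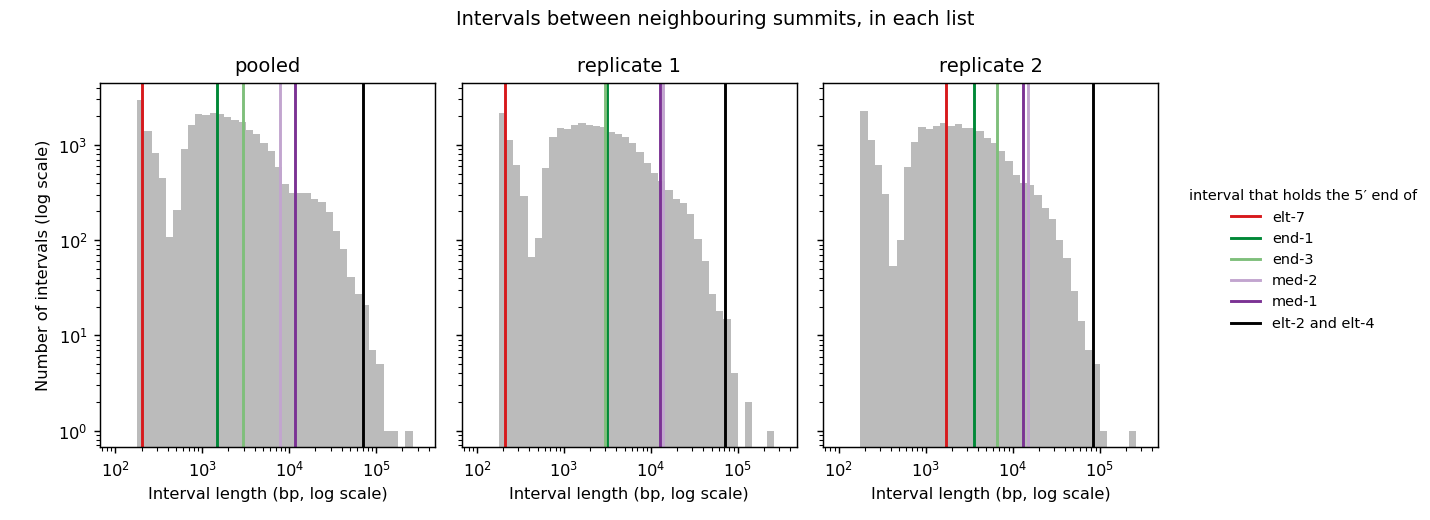
Numbers of intervals between neighbouring summits by length in bp, on log scales, for the pool and each replicate, with coloured lines at the interval that holds the 5′ end of each gene. The line of elt-2 and elt-4, at 70701 bp in the pool, lies at the far right in every list, past the lines of the med genes, and that of elt-7 at the far left in the pool (203 bp) and replicate 1 (211 bp).

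The sequence of the interval was not poor in ELT-2 words. It contained 101 TGATAA sites, or 1.43 per kb, against 1.11 per kb on X and 1.05 per kb in the nuclear genome. Its GC content was 33.3%, against 35.2% for X, and 99.8% of its 36-base words occurred once in the genome. The 120 bases before elt-2 and a site upstream of elt-4 are printed because they hold TGATAA, in capitals, in a stretch with no summit.
elt-2 upstream chrX:10481120-10481239: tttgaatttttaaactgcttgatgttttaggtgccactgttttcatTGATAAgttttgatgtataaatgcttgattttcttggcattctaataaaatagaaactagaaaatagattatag
elt-4 upstream site chrX:10475355-10475384: acgtcatatcaaTGATAAgaccgtttacct
Sites of elt-2 also started 985, 911, 524 and 399 bp before its 5′ end and 18 bp after it, and those of elt-4 started 379 and 160 bp before its 5′ end. Since the elt-2 window held no pooled summit, none of its 69 TGATAA sites could lie within 100 bp of one. This count adds nothing to the absence of summits. In the nuclear genome 10.9% of the sites lay within 100 bp of a pooled summit. In the windows of the other genes 10 of 51 sites lay that close at med-1, 6 of 52 at med-2, 8 of 59 at end-1, 6 of 52 at end-3 and 2 of 40 at elt-7. Reads from the transgene and from the chromosomal elt-2 locus have the same sequence and cannot be told apart in these lists. The part of the transgene in the empty interval was not tested, and a missing entry here does not show that ELT-2 was absent from either gene.

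Of 15 genes of maternal and Wnt-pathway endoderm specification, which act before the cascade, 3 had a thresholded promoter summit, a share near the 13.7% of all genes. A pooled promoter summit was found at 12 of the 15, against 42% of all genes. Some of these entries were weak, as at mom-5 (signal 17.8, with a median of 26.5 over the pooled list). Genes with several annotated 5′ ends also have several windows, and the count was not tested. The summit of skn-1, the activator of the med genes, had a signal of 78.9 in replicate 1, 68.9 in replicate 2 and 147 in the pool. It lay inside the span of the gene, 646 bp upstream of an annotated internal 5′ end, and had TGATAA. That of wrm-1, a beta-catenin gene, lay 728 bp upstream with a signal of 114 in replicate 1, 101 in replicate 2 and 217 in the pool, also with TGATAA. That of mom-1, whose product is needed to release Wnt ligands, lay 747 bp upstream with 170 in replicate 1, 133 in replicate 2 and 303 in the pool, without TGATAA. Each of the 3 exceeded the elt-7 promoter summit in every list. Among 6 GATA and MED-target genes of other lineages (elt-1, elt-3, egl-18, elt-6, tbx-35 and ceh-51), 0 had a thresholded promoter summit and 4 a pooled one, against 13.7% and 42% of all genes, and counts of so few genes are read as neither high nor low.

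Known genes of the target tissue were looked up for a summit. The intestinal genes ifb-2 (an intermediate filament, signal 263) and act-5 (brush border actin, signal 139) had thresholded promoter summits and ges-1 had none in its window. The muscle and pharynx myosin genes myo-3, unc-54 and myo-2 had none in theirs, as was the case for most genes, since 13.7% had one. Within 20 kb all 6 genes had thresholded summits, 6 for ifb-2, 2 each for act-5 and ges-1, 2 for myo-3, 1 for unc-54 and 3 for myo-2, so these few genes do not separate the tissues. The embryos were whole animals, so summits from intestinal and other nuclei cannot be told apart, nor can few cells with strong binding and many with weak binding.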

How the data were processed

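ELT-2 ChIP-seq peak lists for ce11 were used as deposited: 1 per replicate, 1 for the pooled replicates and 1 thresholded. The authors' signal, −log10 q-value and summit offset of each peak were read as given. Per the deposited file names the replicate and pooled lists hold peaks and background, prepared as input for the irreproducible discovery rate (IDR) procedure. The aligner, the peak caller and the IDR threshold were not given in the sources used here. Depth is unknown, since no reads were counted, so no intervals are given and signals were ranked only within a list. The 4 lists in ce10 coordinates were not used. Control libraries were not analysed here.

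Gene positions came from Ensembl WBcel235 and sequences from the RefSeq copy of that assembly. Summits were taken within 20 kb of each gene, matched between lists within 100 bp and searched for TGATAA within 50 bp on either strand. The counting was tested on simulated lists with known answers (Python 3.11.15, numpy 2.4.6, pandas 2.3.3). With 1 group there is no comparison between conditions and no test. The members and lists were chosen with earlier results of these data known. Named genes are the 7 members and the gene with the 5′ end nearest to each thresholded summit in their windows. Genes of 2 related lists with a thresholded promoter summit are also named. So are the 3 genes nearest to elt-7 in log10 rank, leaving aside C18G1.9, which shares its summit. Other genes named at a summit were chosen after its position was seen, as was the 1000 bp margin for intervals. All 7 genes were found by symbol; their proteins were not examined here. The labels call the replicates biological and say nothing more of their cultures.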

Additional observations from a re-analysis of the deposited data

How the results depend on the processing

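No paired analysis was possible because the libraries form 1 group and no result comes from a test. Of 36 alternatives, 27 left a count within 1.5 times its value. The single member with a promoter summit was elt-7 under all 7 alternatives tried for it, the interval around elt-2 ran from 71655 to 83489 bp with either replicate's list and was 93496 bp in the thresholded list, and the share of unique words at the 7 genes was 96.2% with 36 bases and 97.6% with 50. With the strongest 2049 peaks, 3 members had a summit within 20 kb (med-2, end-1 and elt-7), against 5. The share of all genes fell as well, to 54.9% from 75.7%. In the windows of the members 4 summits were counted, against 9. There were 5 summits within 10 kb, 25 within 50 kb and 64 in the whole pooled list, and 9 and 11 with the 4098 strongest entries of 1 replicate. Summits with TGATAA numbered 9 within 50 kb and 15 in the whole pooled list, against 4. For the 9 summits, TGATAA lay within 25 bp of 2, and WGATAR lay within 50 bp of 8. Shares of all thresholded summits under these settings are not given here. With 1 replicate's list, 5 to 6 summits had TGATAA. Within 50 kb all 7 genes, elt-2 and elt-4 included, had a thresholded summit, with no share over all genes given at that distance. These changes follow the width of the window, the length of the list or the word searched. Summit positions limit the site counts: the end-1 site was within 50 bp of the summit of the pool and of replicate 1 and not of replicate 2.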

Other observations

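A second pooled summit lay 190 to 220 bp from 4 of the 9 thresholded summits near the genes (44.4%), those at med-1, med-2, end-1 and elt-7, and from 1637 of all 4098 (39.9%). A pooled summit 390 to 420 bp away was found for 0 of the 9 and for 8 of the 4098 (0.195%). No pooled summits were closer to each other than 199 bp. Such neighbours add to the number of pooled entries counted around a strong peak, as at elt-7, where the entry 154 bp after the 5′ end lay 203 bp from the promoter summit.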
